A study of Gasterosteus aculeatus with 60 samples.

Results

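The genes described here are the 100 whose RNA was most clearly lower in challenged than in control male sticklebacks at 60 min in the diencephalon and the telencephalon together. They were chosen by measured values: in each region a t statistic with unequal variances was taken for every gene, challenged minus control, on log2(cpm + 1) of the 10 fish of 60 min (cpm, the gene's counts scaled to a library of 1000000 counts), and the 100 genes with the lowest value of the larger of the 2 t were kept. Genes entered the ranking with a mean of at least 1 cpm in each region over its 30 libraries, which left 16444 of the 17536 genes of the count table, and matn4, which held place 30 of the ranking, was left out by the rule. The 60 min values therefore describe the choice and are given with no test. The tests concern the fish of 30 and 120 min, which took no part in the t values. The fit behind the treatment tests used all 30 libraries of a region, so the fish of 60 min entered its estimate of the spread. Counts with the 10 libraries of a time alone are given at the end.

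The animals were adult territorial males of the threespined stickleback (Gasterosteus aculeatus), a fish whose males guard a nest. Challenged males met a smaller intruding male held in a flask, control males met a flask with nothing in it, and different fish were taken 30, 60 or 120 min after the flask was introduced. Both brain regions were dissected from each of 30 fish, which gave 60 libraries in 12 groups: challenged males at 30, 60 and 120 min and control males at 30, 60 and 120 min, in the diencephalon and in the telencephalon, with 5 fish in each group. The fish came from 1 freshwater population kept in the laboratory, no other treatment or genotype entered, and a time series here compares different fish, not the same fish over time. The libraries are of whole tissue pieces, in which fewer cells of a type and less RNA per cell cannot be told apart.

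The diencephalon holds the hypothalamus and thalamus, and the telencephalon holds the pallium and subpallium, and both take part in the control of social behaviour in fishes. The known functions among the 100 genes are mixed, and whether the genes share a pathway was not tested. Among the 42 that carry a symbol are a member of the β-galactosidase family (glb1l), a lysosomal protease (lgmn), a proton pump subunit (atp6v0a1a) and a regulator of the cell cycle (lin37). Others are proteins of innate immunity (C3, lygl1), metabolic enzymes and transporters (hk1, aspa, slc4a4b) and transcription factors (tefa, twist1a, nfe2l1a). The lysosome is the compartment in which cells degrade proteins, sugars and lipids at low pH, complement proteins and lysozymes mark or break microbes and are made in the brain mainly by glia and immune cells, and the DREAM complex, of which lin37 encodes a part, holds back cell division.

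The libraries held 17705327 to 55299804 counts each, with a median of 30159568. All 100 genes had counts in every library, between 2 and 11682 with a median of 462, and all 100 passed the expression filter of the tests in both regions. They were somewhat weakly expressed, with a median of 18.9 cpm in the diencephalon and 15.5 cpm in the telencephalon, beside 25.8 and 24.6 cpm over all 16444 genes. A few libraries stood apart in markers of other cells. The summed level of 8 markers of microglia and other myeloid cells at 60 min lay between 147 and 243 cpm in the diencephalon of challenged males and between 129.9 and 1784 cpm in that of control males, with control fish 8 at the top, and between 152 and 235 cpm in the telencephalon of challenged males and between 169.6 and 876 cpm in that of control males, again with fish 8 at the top. Challenged fish 9 of 120 min had 1213 cpm of these markers in the diencephalon and 1255 cpm in the telencephalon, and control fish 35 of 60 min had 1223 and 558 cpm of 6 photoreceptor markers in the same order of regions. Challenged fish 19 of 120 min had 651 cpm of the photoreceptor markers in the diencephalon, where the other challenged fish of that time had at most 4.02 cpm. No marker of either list was at 0 in a whole group. The 5 diencephalon markers summed to 87.7 cpm or more in every diencephalon library. In the telencephalon their group medians were 4.34 to 22.3 cpm, but they reached 1156 cpm in 1 library of challenged males and 964 cpm in 1 of control males at 30 min. The highest telencephalon values were 19.1 cpm in challenged and 155 cpm in control males at 60 min, and 757 and 87.7 cpm at 120 min. The 1 telencephalon marker found had 107.6 cpm or more in every telencephalon library and at most 16.8 cpm in the diencephalon. The 6 neuron markers summed to at least 1281 cpm in every library, and the part of these cells in the results below was not tested except where values without a fish are given.

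At 60 min the t values of the 100 genes ran from -6.95 to -2.24 in the diencephalon and from -6.02 to -2.23 in the telencephalon. The median difference, challenged minus control on the log2(cpm + 1) scale, was -0.29 in the diencephalon, with single genes between -1.92 and -0.05, and -0.38 in the telencephalon, with single genes between -1.98 and -0.08. In 15 genes every challenged fish lay below every control fish in the diencephalon, against a share of 0.28% over all genes, and in 17 genes in the telencephalon, against 0.632%. Only glb1l, zgc:136908 and ENSGACG00000009498 had separate groups in both regions, where the share over all genes was 0.0182%. With edgeR's quasi-likelihood test, 72 genes had an unadjusted p under 0.05 and a lower level in challenged males in the diencephalon (6.61% of all genes) and 70 in the telencephalon (5.22%). These 60 min counts follow from the choice of the genes.

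The 60 min difference had 2 sides. Each library was placed by the median, over the 100 genes, of its deviation in log2 cpm from the mean of the 20 fish of 30 and 120 min. In the diencephalon the 60 min fish stood at -0.15 ± 0.04 when challenged and at 0.17 ± 0.06 when control (mean ± SD, n = 5 each), and in the telencephalon at -0.19 ± 0.04 when challenged and 0.16 ± 0.05 when control. The challenged fish of 60 min thus lay below the fish of the other times and the control fish of 60 min lay above them, by similar amounts, and the choice of genes on this difference bears on both sides. At 30 and 120 min the group means stayed between -0.02 and 0.02 and single fish between -0.14 and 0.17, so that challenged and control fish overlapped at both times. These fish set the reference, so their place around 0 as a whole is fixed in part by it.

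**Figure D1:**
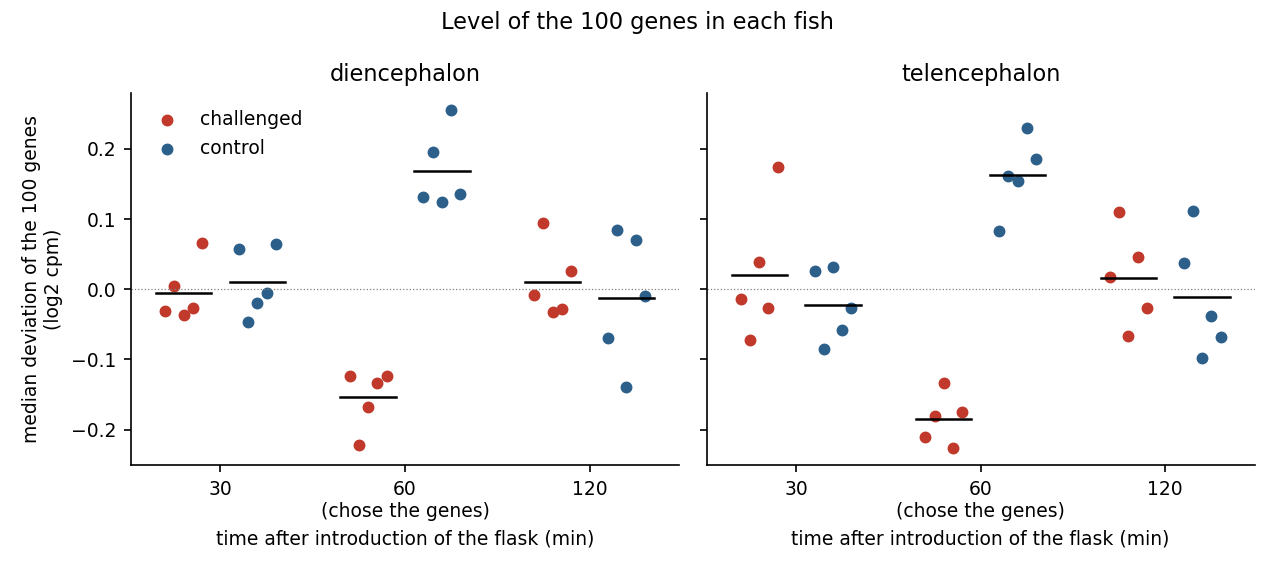
Median deviation over the 100 genes (log2 cpm, against the mean of the 20 fish of 30 and 120 min) in each fish, by time and treatment in each region; each point is 1 fish and the bars are group means. The challenged fish of 60 min, whose values chose the genes, sit between -0.22 and -0.12 in the diencephalon and the control fish of 60 min between 0.12 and 0.25, while the groups of 30 and 120 min overlap around 0.

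Gene by gene, the mean of the challenged fish of 60 min was the lowest of the 6 group means in 75 genes in the diencephalon and 83 in the telencephalon, and the mean of the control fish of 60 min was the highest in 64 and 58 genes in the same order. Both held at once for 44 genes in each region. The size of the 60 min difference exceeded the sizes at 30 and at 120 min in 95 genes in the diencephalon and 96 in the telencephalon. The choice of the genes on the 60 min difference bears on all of these counts. Shares over all genes were not taken for them, so they describe the set and give no test.

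The course on either side of 60 min was the question left to test, and the 100 genes as a list stayed near 0. The median difference on the log2(cpm + 1) scale was -0.00 at 30 min and 0.01 at 120 min in the diencephalon, and 0.04 at 30 min and 0.02 at 120 min in the telencephalon. In the diencephalon 25 genes were lower in challenged males at both times, 26 were higher at both, 26 were lower at 30 min and higher at 120 min, and 23 the other way round. In the telencephalon the counts were 18 lower at both times, 35 higher at both, 22 lower and then higher, and 25 higher and then lower. Shares over all genes were not taken for these patterns within a region. Time by time on this scale, 51 genes were lower at 30 min and 48 at 120 min in the diencephalon, beside 44.1% and 52.6% of all genes. In the telencephalon 40 and 43 were lower, beside 46.5% and 52.7%. Only 12 genes were lower in all 4 comparisons, beside 11.7% of all genes, and 20 were higher in all 4, beside 13.3%. The 12 included the symbols dock11 (2 of 2), gpha2, aspa and nfe2l1a.

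**Figure D2:**
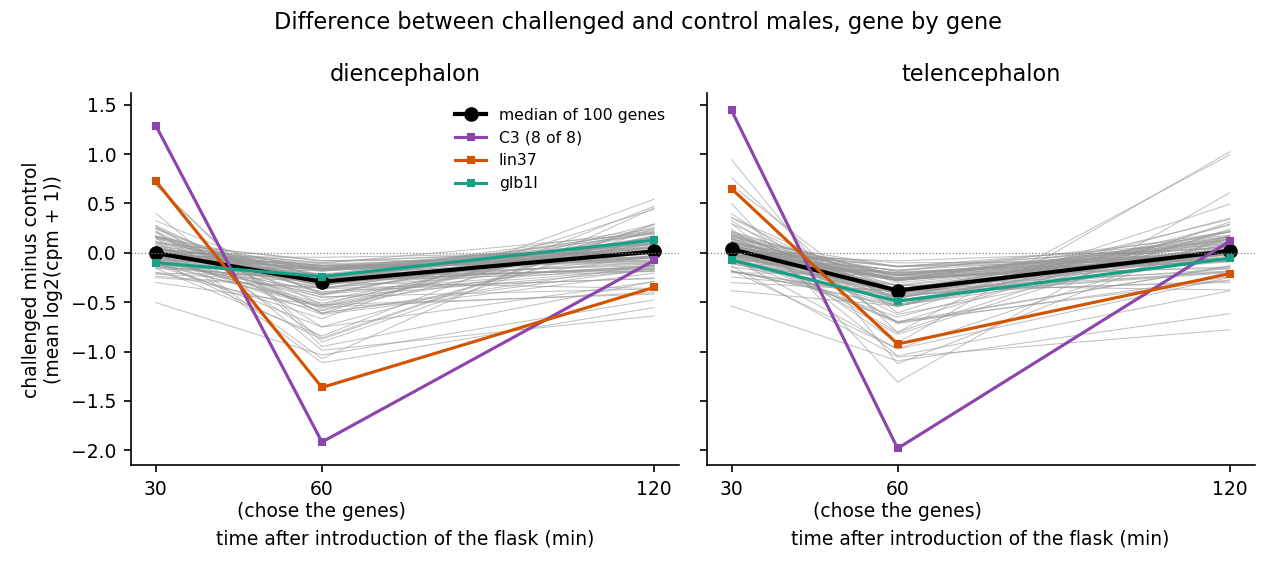
Difference between challenged and control males (mean log2(cpm + 1), 5 fish each) at 30, 60 and 120 min for each of the 100 genes, as grey lines, with their median in black and C3 (8 of 8), lin37 and glb1l in colour. The median sits near 0 at 30 and 120 min and at -0.29 in the diencephalon and -0.38 in the telencephalon at 60 min, the time that chose the genes, while C3 (8 of 8) spans from 1.29 at 30 min to -1.92 at 60 min in the diencephalon.

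None of the 100 genes passed an adjusted p of 0.1 at 30 or 120 min in either region in edgeR's quasi-likelihood test, and neither did any other gene, so that the share over all genes was 0.0% in all 4 comparisons. The study used another edgeR test, a glm with tagwise dispersions. At an FDR under 0.1 it reported differentially expressed genes at these times in both regions. The 0.0% thus holds for the quasi-likelihood test used here. The smallest adjusted p among the 100 was 0.708 in the diencephalon and 0.634 in the telencephalon at 30 min, and 0.634 in the diencephalon and 0.685 in the telencephalon at 120 min. At an unadjusted p under 0.05, 1 gene was lower (1.84% of all genes) and 0 were higher (1.44%) in the diencephalon at 30 min, and 1 was lower (2.12%) and 2 were higher (2.02%) in the telencephalon at 30 min. At 120 min 2 were lower (2.38%) and 6 higher (3.54%) in the diencephalon, and 1 was lower (1.48%) and 4 were higher (2.5%) in the telencephalon. These counts lie near or below the background. The genes higher at 120 min, 6 in the diencephalon and 4 in the telencephalon, lie only slightly above it. DESeq2 called 0 genes of the set after adjustment as well. For the totals without single fish that follow, shares over all genes were not taken. The diencephalon total of 8 at 120 min was 4, with 1 lower and 3 higher, without challenged fish 9, and it was 2 without control fish 2, 5 without control fish 20, 4 without control fish 32 and 7 without challenged fish 19, and the telencephalon total of 5 was 3 without challenged fish 9 or control fish 32 and 8 without challenged fish 13 or 29.

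A log2 fold change below 0 was found in 58 genes in the diencephalon at 30 min (50.9% of all genes), 43 in the telencephalon at 30 min (50.4%), 46 in the diencephalon at 120 min (49.0%) and 36 in the telencephalon at 120 min (46.0%). The median log2 fold change of the 100 genes was -0.03 in the diencephalon and 0.02 in the telencephalon at 30 min, and 0.01 in the diencephalon and 0.04 in the telencephalon at 120 min, beside -0.00, -0.00, 0.00 and 0.01 over all genes. No gene of the set had separate challenged and control fish at 30 or 120 min in either region, where the shares over all genes, in either direction, were 0.736% and 0.687% in the diencephalon and 0.766% and 0.535% in the telencephalon at 30 and 120 min.

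The treatment effect differed between 30 and 120 min at an unadjusted p under 0.05 in 1 gene in the diencephalon, farp1 (4.69% of all genes), and in 2 genes in the telencephalon, lin37 and gpn2 (4.05%), and in none after adjustment. At 120 against 30 min, 3 genes differed in challenged males in the diencephalon (6.91%) and 1 in the telencephalon (4.14%), and 2 differed in control males in the diencephalon (4.14%) and 5 in the telencephalon (3.88%), again at an unadjusted p and none after adjustment. The β-galactosidase-like gene glb1l was the one gene among those of both control lists and of the telencephalon list of challenged males. It was lower at 120 than at 30 min, with a log2 fold change of -0.36 in the diencephalon of control males, -0.33 in the telencephalon of control males and -0.29 in the telencephalon of challenged males.

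The gene with the lowest ranking value was lin37 (ENSGACG00000007600, linkage group XX, 8907622 to 8910713), which encodes a subunit of the DREAM complex, a repressor of cell cycle genes. At 60 min its diencephalon levels were 64.7, 51.6, 59.2, 136 and 55.2 cpm in challenged males and 175, 143, 234, 214 and 141 cpm in control males, and its telencephalon levels were 63.8, 52.7, 62.8, 104 and 55.9 cpm in challenged males and 99.1, 122, 150.1, 143 and 120.5 cpm in control males. One challenged fish, fish 28, was the only overlap in the telencephalon, and in the diencephalon it stayed just below the lowest control fish.

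At 30 min the group means of lin37 lay the other way round. The telencephalon levels of lin37 were 92.5, 106, 61.9, 99.1 and 112 cpm in challenged males, against 55.0, 45.7, 56.0, 52.3 and 93.7 cpm in control males, a log2 fold change of 0.63 ± 0.23 (SE; edgeR adjusted p = 0.634, exact permutation p = 0.0238, two-sided). The groups overlapped only through the control fish with 93.7 cpm, fish 33. In the diencephalon the 30 min levels were 115, 142, 60.4, 139.7 and 139.9 cpm in challenged males and 56.5, 48.8, 62.9, 49.6 and 175 cpm in control males, with a difference of 0.59 ± 0.35 (adjusted p = 0.820), which was 1.12 without control fish 33. Neither region passed the adjusted threshold, and lin37 was among the genes named for a small p at 30 min. At 120 min the log2 fold changes were -0.35 ± 0.35 in the diencephalon and -0.19 ± 0.23 in the telencephalon, with wide overlap.

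In the diencephalon the level of lin37 fell into 2 bands over the 30 fish. There 15 fish held 48.8 to 73.9 cpm and 15 held 115 to 234 cpm, and in the telencephalon the same 15 and 15 fish held 45.7 to 86.7 cpm and 92.5 to 150.1 cpm, with the bound of 90 cpm set after the values were seen. The telencephalon levels showed no clear gap at that bound, but all 30 fish were on the same side of it in both regions. The high band held 4 challenged and 1 control fish at 30 min, 1 challenged and 5 control fish at 60 min, and 1 challenged and 3 control fish at 120 min. The order of the fish was thus largely shared by the regions, and the bands were spread unevenly over the groups.

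The complement gene C3 (8 of 8) (ENSGACG00000019826, linkage group IX, 19651307 to 19670618) had the largest 60 min difference of the named genes on the log2(cpm + 1) scale. Complement C3 is the central protein of the complement cascade, and this locus is 1 of 8 copies annotated in this genome, so reads could be split among copies. At 60 min its diencephalon levels were 25.9, 5.62, 5.38, 5.09 and 0.729 cpm in challenged males, against 26.9, 35.9, 5.09, 50.8 and 27.3 cpm in control males. In the telencephalon they were 23.8, 4.42, 3.78, 3.45 and 1.52 cpm in challenged males and 23.1, 41.2, 4.14, 54.5 and 22.9 cpm in control males.

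The levels of C3 (8 of 8) fell into 3 bands in the diencephalon, where 9 fish held 0.729 to 5.70 cpm, 14 held 21.3 to 27.3 cpm and 7 held 35.9 to 50.8 cpm. With the same bounds the telencephalon bands were 1.52 to 5.80, 21.9 to 31.6 and 36.7 to 54.5 cpm. Only the low band stood clearly apart there. The gap from 31.6 to 36.7 cpm was smaller than that from 45.7 to 54.5 cpm inside the high band. All 30 fish were in the same band in both regions. The low band held 0 challenged and 2 control fish at 30 min, 4 challenged fish and 1 control fish at 60 min, and 1 of each at 120 min. The bounds, 10 and 33 cpm, were set after the values were seen.

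At 30 min C3 (8 of 8), among the genes named for a small p in the diencephalon, had higher means in challenged males. In the telencephalon it had 26.3, 45.7, 44.6, 22 and 39.6 cpm in challenged males, against 21.9, 23.1, 22.7, 4.26 and 4.31 cpm in control males, a log2 fold change of 1.22 ± 0.66 (adjusted p = 0.795, exact permutation p = 0.0317). In the diencephalon the fold change was 1.11 ± 0.64 (adjusted p = 0.813, exact permutation p = 0.0556). The challenged and control fish overlapped in both regions, and at 120 min the fold changes were -0.12 ± 0.64 in the diencephalon and 0.09 ± 0.65 in the telencephalon.

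**Figure D3:**
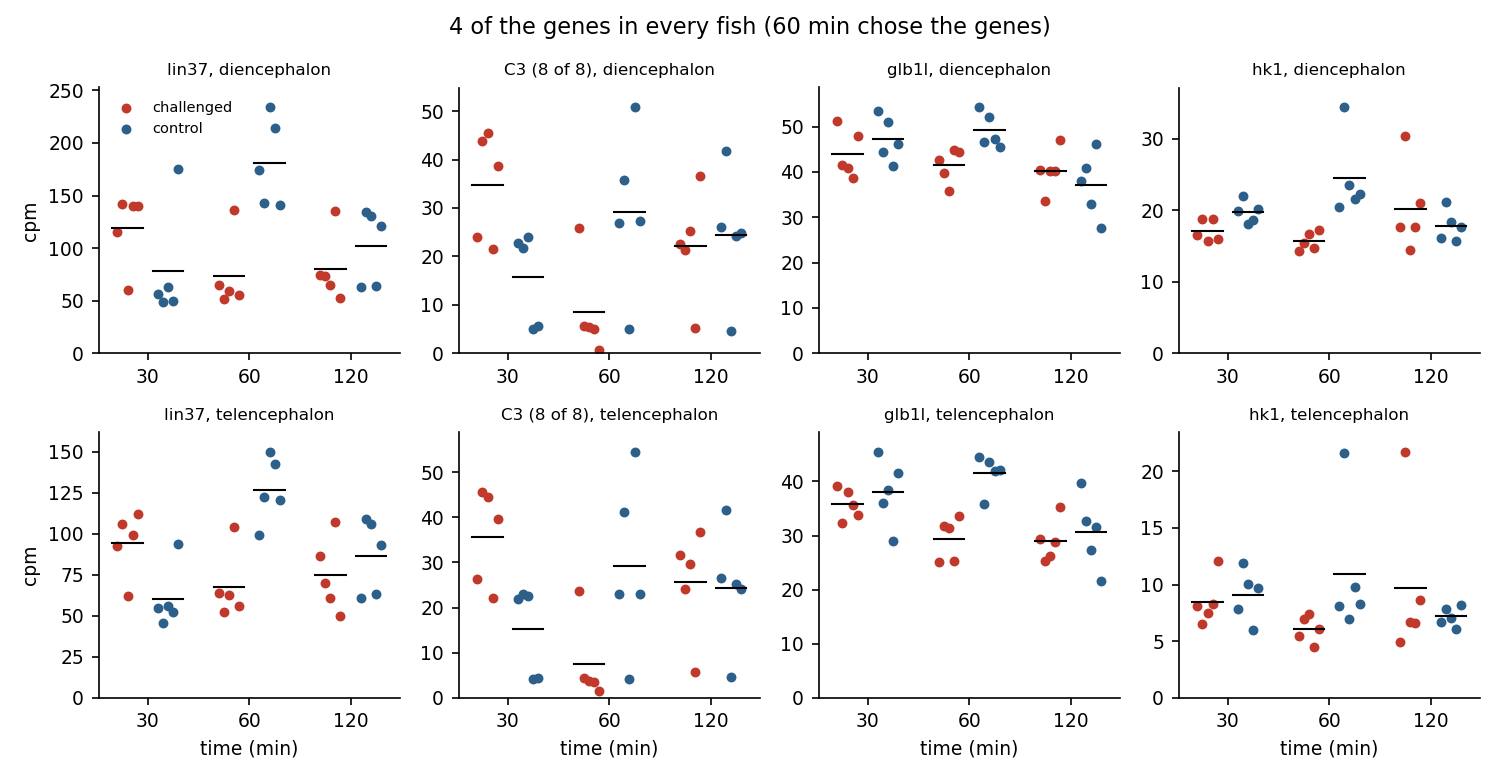
Level (cpm) of lin37, C3 (8 of 8), glb1l and hk1 in every fish, by time and treatment, in the diencephalon (above) and the telencephalon (below); each point is 1 fish and each bar a group mean. C3 (8 of 8) and lin37 sit in separate bands of fish in the diencephalon, while in the telencephalon only the low band of C3 (8 of 8) stands clearly apart. At 60 min glb1l has challenged fish below control fish in both regions, with 35.7 to 44.9 cpm against 45.5 to 54.3 cpm in the diencephalon.

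The other immune gene, lygl1 (ENSGACG00000019327, linkage group IX, 16510433 to 16512041), encodes a lysozyme that cleaves bacterial cell walls and was expressed at low levels that ranged over more than a factor of 10. At 60 min it had 0.368, 0.0665, 0.0640, 1.04 and 1.01 cpm in the diencephalon of challenged males and 0.904, 3.69, 0.905, 1.96 and 2.39 cpm in that of control males, so a few reads set the level in some libraries. At 30 min its log2 fold change was 1.18 ± 0.78 in the diencephalon and 0.26 ± 0.70 in the telencephalon, and at 120 min -0.49 ± 0.79 and -0.60 ± 0.72, none near the threshold. The gene samhd1 (2 of 3) (scaffold 180, 90678 to 100224), which encodes an enzyme that breaks down deoxynucleotides and limits viral copying, had 17.4, 14.5, 20.5, 21.1 and 15.3 cpm in challenged and 19.0, 36.8, 24.8, 25.3 and 26.9 cpm in control males in the diencephalon at 60 min. Its log2 fold changes at 30 and 120 min lay between -0.06 and 0.19 in both regions.

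Among 58 tested genes of a myeloid and leukocyte list, 2 of which, C3 (8 of 8) and lygl1, belong to the set, 1 was lower and 1 was higher at 30 min in the diencephalon and 2 were lower and 1 was higher in the telencephalon, at an unadjusted p under 0.05. At 120 min 0 were lower and 5 higher in the diencephalon, with a list median of 0.90 on the log2 scale, and 0 were lower and 14 higher in the telencephalon, with a median of 0.82. Without challenged fish 9, which held the high myeloid marker level, these counts were 0 lower and 1 higher in each region, and the medians were 0.06 and -0.29. Values without another fish were not taken for this list. Whether the smaller group alone reduced the counts was not tested. Over all genes and fish, 1.84% were lower and 1.44% higher at 30 min in the diencephalon, and 2.12% and 2.02% in the telencephalon. At 120 min the shares were 2.38% and 3.54% in the diencephalon and 1.48% and 2.5% in the telencephalon. They stand beside the lists below as well, and all lists were written with earlier results of these data known.

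The genes of the set on a lysosome list were glb1l, atp6v0a1a and lgmn, 3 of its 23 tested genes. glb1l (ENSGACG00000005954, linkage group XVI, 11568969 to 11574338) belongs to the β-galactosidase family. At 60 min it had 42.6, 39.8, 35.7, 44.9 and 44.4 cpm in challenged males and 54.3, 46.6, 52.1, 47.3 and 45.5 cpm in control males in the diencephalon, and 25.1, 31.7, 31.5, 25.3 and 33.7 cpm in challenged males and 44.5, 35.8, 43.6, 42.0 and 42.1 cpm in control males in the telencephalon, with no overlap in either region.

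At 30 and 120 min the glb1l differences were small: -0.12 ± 0.11 in the diencephalon and -0.10 ± 0.13 in the telencephalon at 30 min, and 0.12 ± 0.11 and -0.06 ± 0.13 at 120 min (log2 fold change ± SE), all with adjusted p above 0.9. The vacuolar proton pump acidifies the lysosome, and atp6v0a1a encodes one of its membrane subunits (linkage group XI, 5708601 to 5718665). It had 50.3, 45.3, 50.8, 44.6 and 52.8 cpm in challenged males and 55.3, 61.0, 69.6, 72.3 and 77.9 cpm in control males in the telencephalon at 60 min, with no overlap. At 120 min it was 0.22 ± 0.13 higher in the diencephalon and 0.25 ± 0.17 higher in the telencephalon, with adjusted p of 0.804 and 0.861.

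The protease legumain, encoded by lgmn (linkage group XV, 12139892 to 12145795), was expressed at 112, 111, 93.4, 131 and 91.8 cpm in challenged males and 108, 133, 134, 150.3 and 133 cpm in control males in the diencephalon at 60 min. At 120 min in the diencephalon it was higher in challenged males, at 107, 125, 114, 130.4 and 127 cpm, against 98.5, 114, 94.0, 110.3 and 96.5 cpm in control males (0.24 ± 0.12, adjusted p = 0.747, exact permutation p = 0.0317). Over the lysosome list, 0 genes were lower and 1 was higher at 30 min in the diencephalon and 0 either way in the telencephalon. At 120 min 0 were lower and 4 higher in each region, and without fish 9 the counts were 1 lower and 1 higher in the diencephalon and 1 lower and 0 higher in the telencephalon. The list median at 120 min was 0.48 in the diencephalon and 0.42 in the telencephalon, and 0.05 and -0.09 without fish 9.

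Just outside the set, and close to it by rank, was cks1b, a regulator of cyclin-dependent kinases (larger t of -2.23), followed among genes with a symbol by C3 (1 of 8), another copy of C3, and mfsd2b, a sphingolipid transporter in mammals (both -2.22). The 3 last genes inside with a symbol were hk1 and farp1 (both -2.25) and nfe2l1a (-2.23). C3 (1 of 8) had the same course as its copy in the set, with a log2 fold change of 1.10 ± 0.64 in the diencephalon and 1.27 ± 0.69 in the telencephalon at 30 min.

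Of the metabolic genes, hk1 (linkage group II, 13433139 to 13446582) encodes hexokinase, the enzyme that starts glucose use. Its diencephalon levels at 60 min were 14.3, 15.4, 16.7, 14.8 and 17.2 cpm in challenged males and 20.4, 34.4, 23.6, 21.6 and 22.3 cpm in control males, with the highest value in control fish 8, the fish rich in myeloid markers. In the telencephalon it had 5.49, 6.98, 7.43, 4.51 and 6.10 cpm in challenged males and 8.12, 21.6, 6.94, 9.76 and 8.27 cpm in control males, again with fish 8 highest. At 30 min hk1 had 16.5, 18.8, 15.7, 18.8 and 16.0 cpm in challenged males and 19.9, 22.1, 18.2, 18.7 and 20.1 cpm in control males in the diencephalon (-0.22 ± 0.15, adjusted p = 0.850, exact permutation p = 0.0476). At 120 min the highest hk1 levels were in challenged fish 9, at 30.3 cpm in the diencephalon and 21.7 cpm in the telencephalon, beside 14.4 to 21.0 cpm and 4.91 to 8.62 cpm in the other challenged fish.

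The bicarbonate transporter gene slc4a4b (linkage group XIV, 1689166 to 1703994) had the same 2 fish among its highest. It was named for its small p at 120 min in the diencephalon. There it had 4.92, 12.0, 4.33, 6.44 and 4.35 cpm in challenged males, with fish 9 at 12.0, and 2.67 to 7.22 cpm with a median of 3.47 cpm in control males (0.70 ± 0.31, unadjusted p = 0.0341, adjusted p = 0.718, exact permutation p = 0.119). Without fish 9 the log2 fold change was 0.32. The aspartoacylase gene aspa (linkage group VII, 15227558 to 15234735), whose enzyme breaks down N-acetylaspartate in oligodendrocytes, had 68.2, 55.1, 53.2, 56.3 and 69.1 cpm in challenged males and 74.7, 63.2, 75.6, 93.6 and 64.4 cpm in control males in the diencephalon at 60 min. Its means lay lower in challenged males at 30 and 120 min in both regions too, by -0.30 ± 0.23 and -0.26 ± 0.17 at 30 min and -0.06 ± 0.23 and -0.15 ± 0.17 at 120 min, in the diencephalon and telencephalon in that order, none past the threshold. Control fish 5 of 30 min had 141 and 86.1 cpm of aspa in the same order. The other control fish of 30 min had 54.3 to 75.1 cpm and 39.0 to 48.8 cpm. Challenged fish of 30 min had a similar range, 55.9 to 80.3 cpm and 37.2 to 49.1 cpm. The 30 min differences without fish 5 were not taken.

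On a list of 11 genes of myelin and oligodendrocytes, of which aspa is 1, 0 genes were lower and 0 higher at 30 min in the diencephalon, and 4 were lower and 0 higher at 120 min, or 1 lower and 1 higher without fish 9. In the telencephalon 1 was lower and 0 higher at 30 min, and 0 were lower and 1 higher at 120 min, of 10 genes tested. The 4 oligodendrocyte markers, aspa among them, summed to 531 to 655 cpm in challenged males and 638 to 806 cpm in control males in the diencephalon at 120 min. Their part in the aspa values was not tested.

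The thyrostimulin subunit gene gpha2 (linkage group VII, 7677892 to 7678577) is the set's gene of the pituitary list. At 120 min its levels in the diencephalon were 1.06, 0.597, 1.1, 1.29 and 0.375 cpm in challenged males and 2.9, 1.2, 0.65, 1.16 and 1.87 cpm in control males (-0.82 ± 0.40, adjusted p = 0.747, exact permutation p = 0.159). On the pituitary list of 11 genes, 8 were lower and 1 was higher at 30 min and 8 were lower and 0 higher at 120 min in the diencephalon, 6 and 0 without fish 9. The summed level of 4 pituitary markers there ran from 1.77 to 235 cpm in challenged males at 30 min, with a median of 5.27 cpm. In control males at 30 min it ran from 2.80 to 5845 cpm, with a median of 3.71 cpm. At 120 min it ran from 1.99 to 3.97 cpm (median 3.62) in challenged and from 2.67 to 1001 cpm (median 7.86) in control males. The part of the control fish with the highest pituitary levels in the list counts was not tested. The levels of gpha2 lay between 0.368 and 3.16 cpm in every diencephalon library. In the telencephalon 2 genes of the list were tested, of which 0 were lower and 1 higher at 30 min and 1 lower and 0 higher at 120 min.

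The next genes, of signalling to the cytoskeleton, were named for their small p at the other times, and none passed the adjusted threshold. The counts of lower genes at those times lay near or below the shares over all genes. farp1 (linkage group I, 21155272 to 21181371) encodes an exchange factor for small GTPases that promotes synapse formation in mammals. At 30 min in the diencephalon it had 65.8, 67.2, 62.8, 71.6 and 70.2 cpm in challenged males and 73.0, 68.5, 72.5, 89.1 and 88.8 cpm in control males (-0.23 ± 0.10, unadjusted p = 0.0327, adjusted p = 0.708, exact permutation p = 0.0317). In the telencephalon it had 79.4, 76.0, 74.4, 78.0 and 71.2 cpm in challenged males and 101, 73.1, 82.0, 96.2 and 87.1 cpm in control males (-0.22 ± 0.09, adjusted p = 0.654, exact permutation p = 0.0476).

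At 60 min farp1 had 65.9, 65.8, 66.0, 60.2 and 62.7 cpm in challenged males and 97.2, 61.9, 75, 72.7 and 76.4 cpm in control males in the diencephalon. At 120 min the difference was 0.07 ± 0.10 in the diencephalon and 0.03 ± 0.09 in the telencephalon. dock11 (2 of 2) (linkage group VII, 9311356 to 9318824), a paralog-numbered copy of a gene for an activator of Cdc42, had lower means in challenged males at all 3 times in both regions. In the diencephalon at 120 min it had 28.4, 29.0, 33.7, 39.8 and 27.4 cpm in challenged males and 52.9, 39.7, 30.8, 42.6 and 40.5 cpm in control males (-0.38 ± 0.17, unadjusted p = 0.0341, adjusted p = 0.718, exact permutation p = 0.0476). In the telencephalon at 120 min the difference was -0.30 ± 0.14 (adjusted p = 0.723, exact permutation p = 0.143), and at 30 min it was -0.10 ± 0.17 in the diencephalon and -0.05 ± 0.14 in the telencephalon.

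The calpain gene capn2l (linkage group IX, 20091901 to 20102200), for a calcium-dependent protease, was also named for its small p, in the telencephalon at 30 min. There it had 9.48, 7.10, 8.16, 6.43 and 20.6 cpm in challenged males and 9.31, 8.00, 7.12, 6.33 and 5.69 cpm in control males (0.50 ± 0.26, adjusted p = 0.782, exact permutation p = 0.294). Fish 38 alone carried that difference, which was 0.09 without it. The cilia motor gene dnah9 (1 of 2) (scaffold 120, 42991 to 44582), and gpn2 (linkage group XX, 8139823 to 8143249), which encodes a GTPase linked to RNA polymerase assembly, were among the 10 lowest by rank. gpn2 had 16.8, 16.6, 17.1, 20.4 and 17.0 cpm in challenged males and 20.4, 25.5, 25.6, 23.9 and 22.5 cpm in control males in the diencephalon at 60 min, and at 30 and 120 min it differed by 0.15 ± 0.11 and -0.13 ± 0.11 there. Names such as dnah9 (1 of 2), samhd1 (2 of 3), dock11 (2 of 2) and FAM53B (2 of 2) mark copies of a gene, among which reads could be split.

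Of the others of the 10, zgc:162183, zgc:154093, zgc:136908 and FAM53B (2 of 2) are given no role here. zgc:136908 had 3.47, 4.39, 3.78, 5.25 and 5.79 cpm in challenged males and 7.08, 6.67, 7.46, 7.67 and 7.87 cpm in control males in the diencephalon at 60 min, and 3.44, 3.53, 2.06, 4.21 and 3.73 cpm in challenged males and 5.38, 4.72, 4.29, 4.69 and 4.76 cpm in control males in the telencephalon. Its groups did not overlap in either region at 60 min, and its log2 fold changes at 30 and 120 min lay between -0.35 and 0.16. zgc:162183 was also named for its small p at 120 min in the telencephalon. It was higher in challenged males there by 0.25 ± 0.12 (unadjusted p = 0.0490, adjusted p = 0.747, exact permutation p = 0.0476), not past the adjusted threshold.

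Of the transcription factors, tefa, a factor of the circadian output family, had 114, 73.7, 79.1, 101 and 90.7 cpm in challenged males and 110.4, 121, 123, 139.9 and 92.6 cpm in control males in the diencephalon at 60 min. At 120 min challenged fish 29 had 209.5 cpm in the diencephalon and 199 cpm in the telencephalon, above every other fish of that group. nfe2l1a (linkage group XI, 1924128 to 1936404), a factor that drives proteasome genes, lay lower in challenged males by 0.75 on the log2(cpm + 1) scale in the diencephalon at 60 min and by 0.98 in the telencephalon, with log2 fold changes of -0.19 ± 0.34 and -0.08 ± 0.41 at 30 min and -0.34 ± 0.34 and -0.25 ± 0.42 at 120 min. twist1a (linkage group XX, 9505813 to 9506319), a factor of mesenchymal cells, had 1.72, 1.80, 1.96, 0.999 and 2.26 cpm in challenged males and 2.45, 4.55, 4.14, 5.28 and 2.86 cpm in control males in the telencephalon at 60 min, with no overlap.

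The agreement between the regions of a fish was taken in the 20 fish of 30 and 120 min. The rule asked for a low t in both regions of the same fish at 60 min, which favours genes whose variation between fish is shared by the regions, so a high agreement is not independent of the choice. Across these fish, with each group's mean taken off, the Pearson r between the diencephalon and telencephalon levels of a gene had a median of 0.743 over the 100 genes and 0.553 over all genes, and exceeded 0.8 in 38 of the 100 and in 17.3% of all genes. In 4 equal classes of expression level, low to high, the median r was 0.655, 0.746, 0.817 and 0.715 for the set and 0.529, 0.556, 0.575 and 0.547 for all genes, so it was higher in the set in each class. Both regions of a fish share the animal, its handling and its library index group, so r describes these fish and gives no test.

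The highest r among genes with a symbol were 0.994 for C3 (8 of 8), 0.964 for aspa, 0.956 for lin37, 0.953 for apopt1, 0.950 for tefa and 0.937 for lygl1, and the lowest were 0.147 for zgc:136908, 0.314 for FAM53B (2 of 2) and 0.329 for twist1a. The genes also varied more between fish, in a comparison that was not matched for their somewhat weak expression. The median SD of log2 cpm within groups was 0.244 for the set in the diencephalon and 0.293 in the telencephalon, beside 0.160 and 0.184 for all genes.

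**Figure D4:**
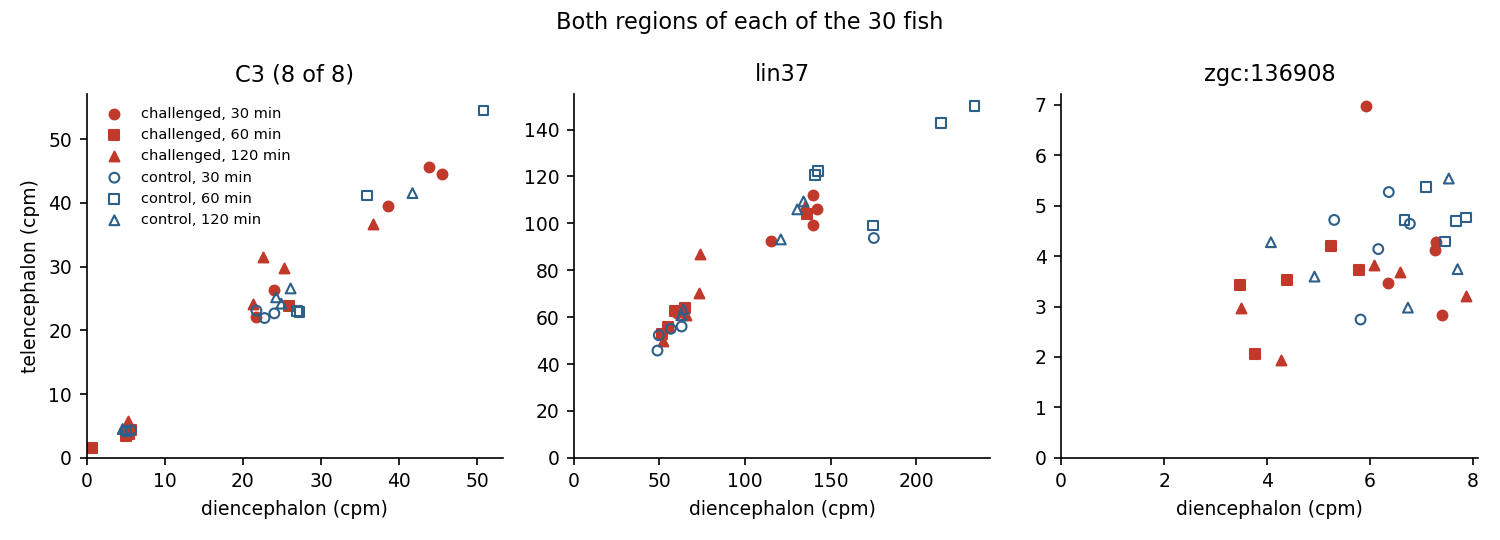
Level (cpm) in the telencephalon against that in the diencephalon of the same fish, for C3 (8 of 8), lin37 and zgc:136908, in all 30 fish; filled marks are challenged and open marks control fish, and shapes give the time. C3 (8 of 8) falls into 3 bands in the diencephalon, of which only the lowest stands clearly apart in the telencephalon. By the bounds of 10 and 33 cpm every fish is in the same band in both regions. The levels of lin37 fall into 2 bands in the diencephalon, while zgc:136908 shows little agreement (r = 0.147 over the 20 fish of 30 and 120 min).

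Between regions, 31 of the 100 genes were higher in the diencephalon than in the telencephalon (32.5% of all genes) and 15 were lower (35.8%) in the 20 fish of 30 and 120 min at an adjusted p under 0.1 from edgeR. With the fish as a block, since both regions came from the same animals, 43 were higher (37.8% of all genes) and 28 lower (41.2%), or 71 in place of 46. Among genes with a symbol the largest diencephalon excess on the log2 scale was that of hk1. It was 1.09 ± 0.12 without the block (adjusted p = 3.62e-10) and 1.13 ± 0.07 with it (adjusted p = 2.47e-12). Next came zgc:136908, with 0.61 ± 0.11 (adjusted p = 6.59e-06) without the block and 0.63 ± 0.10 (adjusted p = 3.98e-06) with it. The values of aspa were 0.54 ± 0.11 (adjusted p = 6.23e-05) without the block and 0.52 ± 0.03 (adjusted p = 1.45e-13) with it. Higher in the telencephalon was twist1a, with -0.84 ± 0.16 (adjusted p = 2.24e-05) without the block and -0.82 ± 0.13 (adjusted p = 7.43e-06) with it. So was samhd1 (2 of 3), with -0.27 ± 0.09 (adjusted p = 0.00807) without the block and -0.27 ± 0.03 (adjusted p = 9.33e-08) with it. The gene lygl1, with -0.70 ± 0.39, passed only with the fish as a block (adjusted p = 0.119 without the block, and -0.68 ± 0.12 with an adjusted p of 1.98e-05 with it). lygl1 was higher in the telencephalon in 19 of the 20 fish.

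The study's tables give a position for 51 of the 100 genes, on the assembly of Ensembl release 75. These tables list genes that the study picked on these same libraries, so the places describe those listed genes. Of the 51, 9 lay on linkage group IX, which holds 6.69% of the 1510 genes of the ranking with a position, and 7 of these 9 lay between 14579270 and 20102200, a stretch with 46 such genes whose bounds are those of its outermost members, so that this density was set by drawing the stretch around them. They included zgc:136908 (14579270 to 14584731), lygl1, C3 (8 of 8) and capn2l. Linkage group XX held 3, gpn2, lin37 and twist1a, within 8139823 to 9506319, beside 4.04% of the located genes, and linkage group VII held 6, beside 7.75%, both near the background.

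The membership itself moved with the fish. When any 1 of the 10 fish of 60 min was left out and the 100 lowest genes were taken again, 49 to 66 of the 100 remained, with the fewest, 49, without control fish 8 and without control fish 27. In all 10 of these sets 19 genes remained, and 27 remained in at least 8. With cpm scaled by TMM 84 remained, with a pseudocount of 0.5 in place of 1 98, and with no filter on the mean level 93.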

How the data were processed

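The authors deposited raw counts per gene for the 60 libraries; per the labels and the study's methods, poly-A RNA was sequenced single-end, aligned with TopHat2 2.0.8 to the stickleback genome and counted with HTSeq 0.6.1 on the annotation of Ensembl release 75, and reads falling in several genes were dropped. Genes reaching 1 cpm in 2 or more of a region's libraries were tested with edgeR 4.0.16 (R 4.3.3; TMM, quasi-likelihood), time and treatment within time, 30 libraries per region, with Benjamini-Hochberg adjustment over the 6 region-by-time comparisons and a threshold of 0.1. Single genes were tested with an exact permutation test of log2 cpm (two-sided, 252 arrangements, smallest possible p 0.00794). These p values were not adjusted for the number of genes, regions and times, so some under 0.05 are expected by chance. Some genes were named for a small p in the same comparison. DESeq2 1.42.0 was an alternative. The deposited cpm table of the same libraries was not used. Other tables were computed with Python 3.11.15.

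The genes and lists were chosen with earlier results of these data known. Genes are named by a rule: the 10 lowest by rank, list members, the smallest p at 30 and 120 min, neighbours of the threshold, the largest region differences, and a transcription factor of the study's network; apopt1 and ENSGACG00000009498 were named after their values were seen. One gene that the rule names is not reported here. Same-numbered libraries of the 2 regions come from the same fish: their deviations correlated at 0.287 to 0.736 (median 0.621) in 20 fish, against a median of -0.14 between other fish of a group. Per the study's methods a control male was tested alongside each challenged male, but the labels do not give the pairs, so the treatment tests were unpaired. No pair of replicates agreed within sampling noise (lowest chi-square per gene 12.9 over 120 pairs). On simulated counts with the same spread for every gene and 200 of 17222 genes changed 2-fold, the 30 min diencephalon test recovered 99.0%. The test of the change of the treatment effect in the diencephalon recovered 63.0%. Recovery of smaller changes, or in genes that vary more between fish, was not tested, so the simulation does not show what the tests of the set could miss.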

Additional observations from a re-analysis of the deposited data

Results flagged for a closer look

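In 276 groups of 5 fish (23 named genes, 2 regions, 6 groups), 29 had a highest or lowest fish whose gap to the nearest other fish, over the range of the group, passed Dixon's 95% value of 0.71; chance flags about 1 in 20 groups. Their parts in any result were not tested.

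Several fish stood apart in more than 1 gene or region. Control fish 33 of 30 min had 175 cpm of lin37 in the diencephalon and 93.7 cpm in the telencephalon, and 75.4 and 89.9 cpm of atp6v0a1a. Challenged fish 28 of 60 min had 136 and 104 cpm of lin37 in the diencephalon and telencephalon and 20.4 cpm of gpn2 in the diencephalon. Challenged fish 4 of 60 min had 25.9 and 23.8 cpm of C3 (8 of 8). Control fish 5 of 30 min had 141 and 86.1 cpm of aspa, and challenged fish 34 of 30 min had 30.5 and 30.4 cpm of nfe2l1a. Challenged fish 38 of 30 min had 20.6 cpm of capn2l in the telencephalon and 10.8 cpm of zgc:154093 in the diencephalon.

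The fish with high myeloid markers were flagged for hk1: control fish 8 of 60 min had 34.4 cpm in the diencephalon and 21.6 cpm in the telencephalon, and challenged fish 9 of 120 min had 21.7 cpm in the telencephalon. Fish 9 also had 12.0 and 11.6 cpm of slc4a4b, and control fish 10 of 120 min had 7.22 and 6.64 cpm of it.

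Single values were flagged in other fish. At 120 min in the diencephalon challenged fish 19 had 135 cpm of lin37, challenged fish 13 had 32.8 cpm of samhd1 (2 of 3), challenged fish 29 had 113 cpm of aspa and challenged fish 1 had 20.5 cpm of nfe2l1a. In the telencephalon challenged fish 11 of 30 min had 7.76 cpm of dnah9 (1 of 2). The lowest fish were flagged in 2 groups, challenged fish 23 of 30 min with 8.74 cpm of zgc:162183 in the diencephalon and control fish 3 of 60 min with 9.82 cpm of nfe2l1a in the telencephalon.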

How the results depend on the processing

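None of the named-gene fold changes recomputed here changed direction. Those recomputed with 1 fish left out were of genes named for the smallest p at 30 or 120 min. Directions of the other quoted fold changes were not tested in this way. The telencephalon medians of the myeloid and lysosome lists at 120 min turned without challenged fish 9, to -0.29 from 0.82 and to -0.09 from 0.42. No gene of the set passed an adjusted p of 0.1 at 30 or 120 min with RLE scaling, DESeq2, the likelihood ratio test, no filter, the library index in the model, the 10 libraries of a time alone or any 1 fish left out. Counts at an unadjusted p under 0.05 moved. Shares over all genes were not taken under these settings or with 1 fish left out. The counts that follow therefore cannot be set against a background. With DESeq2 there were 3 genes for treatment at 30 min in the diencephalon (1 in the text), 3 for the change of the effect in the diencephalon (1) and 4 for control males at 120 against 30 min in the diencephalon (2). With the 10 libraries alone there were 4 in the diencephalon and 6 in the telencephalon at 30 min (1 and 3), and 4 and 2 at 120 min (8 and 5). With the library index there were 3 at 120 min in the diencephalon (8), and 4 for the change and 4 for control males there. With the likelihood ratio test there were 1 for the change and 3 for control males in the telencephalon (2 and 5).

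With 1 fish left out, counts for treatment ran from 0 to 3 in the diencephalon and 3 to 6 in the telencephalon at 30 min, and from 2 to 10 and 3 to 8 at 120 min; for the change of the effect from 0 to 7 and 1 to 5; for 120 against 30 min from 2 to 8 and 1 to 6 in challenged males and from 1 to 7 and 1 to 6 in control males. Region differences ran from 42 to 46 genes and were 71 with the fish as a replicate block, which concerns no other result. The set kept 49 to 66 genes and the median r between regions ran from 0.719 to 0.764. On log2(cpm + 1), exact permutation p values were 0.0476 for C3 (8 of 8) in the diencephalon at 30 min, 0.0556 for farp1 in the telencephalon at 30 min and 0.0556 for dock11 (2 of 2) in the diencephalon at 120 min. Detection at the low levels of lygl1 and gpha2 was not tested.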
